A study of Mus musculus with 24 samples.

Results

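The 10 genes described here lie in 2 neighbouring imprinted domains of distal mouse chromosome 7. They are *Igf2* and *H19* of the *Igf2*-*H19* domain, and *Cdkn1c*, *Phlda2*, *Slc22a18*, *Kcnq1*, *Kcnq1ot1*, *Cd81*, *Tssc4* and *Nap1l4* of the *Kcnq1* domain. They were chosen by name and not by a rule on their values, although earlier results of these data were known. They are 10 of the 34745 genes in the table of sequence reads counted per gene. All 10 passed the filter on low counts, which kept 16026 genes. RNA-seq, labelled mRNA-Seq in the sample titles, had been performed with 129/DBA hybrid mouse embryos at embryonic day 13.5, with 1 embryo per library. The 12 embryos fall into 6 M-Z+ embryos, which are *Zfp57*-/+, and 6 M-Z- embryos, which are *Zfp57*-/-. All of them came from *Zfp57*-/- 129 mothers mated with *Zfp57*+/- DBA* fathers, so both groups lack maternal *Zfp57* and differ in zygotic *Zfp57*, and no embryo with maternal *Zfp57* was compared here. Each count sums the reads of both parental alleles.

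In an imprinted domain the parental alleles of a gene are used unequally, under the control of an imprinting control region (ICR) that carries DNA methylation on only 1 parental chromosome. In the *Igf2*-*H19* domain the ICR is methylated on the paternal chromosome. There CTCF bound to the unmethylated maternal copy blocks the enhancers from reaching *Igf2*, a fetal growth factor gene expressed from the paternal allele, while the noncoding RNA *H19* is expressed from the maternal allele. In the *Kcnq1* domain the ICR is methylated on the maternal chromosome and holds the promoter of the long noncoding RNA *Kcnq1ot1*, which runs antisense inside *Kcnq1* from the paternal chromosome and silences maternally expressed neighbours such as *Cdkn1c* and *Phlda2* in cis. ZFP57 is a KRAB zinc finger protein that binds a methylated TGCCGC sequence in many ICRs and protects their methylation. Over the pair of domains, paternally expressed *Igf2* promotes growth, whereas maternally expressed *Cdkn1c*, *Phlda2* and *H19* restrain it.

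The *Kcnq1ot1* promoter is shown because the RNA it makes was the most variable of the 10 genes. The RefSeq window from 250 bases before to 50 bases after the start of *Kcnq1ot1* lies at chr7:143296498-143296797 on the minus strand of GRCm38.p6, inside *Kcnq1*, which is on the opposite strand. It is printed 5′ to 3′ with CCAAT, the letters bound by the factor NF-Y, in capitals.
*Kcnq1ot1* promoter: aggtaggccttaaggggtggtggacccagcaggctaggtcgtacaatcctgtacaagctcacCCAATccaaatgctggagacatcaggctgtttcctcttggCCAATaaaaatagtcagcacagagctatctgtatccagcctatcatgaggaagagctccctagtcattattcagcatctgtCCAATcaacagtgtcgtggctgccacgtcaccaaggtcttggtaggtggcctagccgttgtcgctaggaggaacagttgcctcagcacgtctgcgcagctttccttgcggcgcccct
CCAAT, searched on both strands as CCAAT or ATTGG, occurs 3 times in this window. It was found at least once in 37.4% and at least 3 times in 3.37% of the 32851 promoter windows of the same length. TGCCGC, searched on both strands as TGCCGC or GCGGCA, is absent from these 300 bases and was found in 11.6% of all windows. The rest of the ICR was not searched, so this absence does not describe the ICR as a whole. Among the 9 windows of 6 of the genes, which are *Igf2* with 4 windows and *Cd81*, *Tssc4*, *Kcnq1ot1*, *Slc22a18* and *Phlda2* with 1 each, 1 *Igf2* window holds TGCCGC and 4 hold CCAAT. These matches describe letters and not bound sites.

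*H19* and *Igf2* also host microRNAs, which are shown with their seeds (bases 2 to 8) in capitals since reads on the host genes are the only values for these transcripts here. The mature sequences are from RefSeq (GRCm38.p6, minus strand).
mmu-miR-675-5p (in *H19*, chr7:142577112-142577133): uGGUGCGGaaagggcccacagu
mmu-miR-675-3p (in *H19*, chr7:142577078-142577099): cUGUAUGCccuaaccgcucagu
mmu-miR-483-5p (in *Igf2*, chr7:142654968-142654989): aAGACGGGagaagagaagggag
mmu-miR-483-3p (in *Igf2*, chr7:142654932-142654952): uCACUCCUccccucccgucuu
The 4 seeds differ from each other. *Mir675* and *Mir483* were not found in the count table by symbol, so no level is given for them.

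The 12 libraries held 12005145 to 19216288 counts each. Levels are given as CPM, counts scaled to a common library size after TMM normalization in edgeR, and a log2 fold change is M-Z- minus M-Z+. A gene was called changed when its adjusted p in edgeR's quasi-likelihood test was below 0.05 and its log2 fold change was beyond 0.5 in either direction. *Zfp57* itself was read in all libraries, with a range of 19.1 to 40.8 CPM for M-Z+ and of 17.8 to 27.8 CPM for M-Z- embryos, and since the deleted part of the gene is not given in the sources used here, its count does not check the labels. The labels do not give sex, litter or batch. *Ddx3y*, a Y-linked gene, had over 100 counts in replicates 1, 2 and 6 of both genotypes and at most 2 counts in replicates 3, 4 and 5 of both, so the groups were balanced for it. In 3 libraries long genes were read relatively more: the gene length slope, which is the change in log2 CPM per doubling of gene length over the genes of a library, was 0.668 in M-Z+ replicate 6, 0.660 in M-Z- replicate 5 and 0.670 in M-Z- replicate 6, against 0.437 to 0.567 in the other 9. The placental markers listed for trophoblast summed to at most 0.161 CPM in any embryo, with 9 of 12 at 0 in all libraries, whereas markers of liver, blood, muscle, heart, neurons and cartilage were all read.

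None of the 10 genes was called changed between M-Z- and M-Z+ embryos, where 0.0811% of all tested genes were (13 of 16026, edgeR). At an unadjusted p below 0.05 with the same limit on the fold change, 1 of the 10 passed, *Kcnq1*, against 1.54% of all tested genes, and DESeq2 called 0 of the 10, against 0.166% of its tested genes. Estimates were higher in M-Z- embryos for 5 genes and lower for 5. The median log2 fold change of the 10 was -0.03, beside -0.01 over all tested genes. The 95% interval of the log2 fold change stayed within a doubling or halving (beyond neither -1 nor 1) for 8 of the 10, the exceptions being *Kcnq1* and *Kcnq1ot1*, and within 0.5 either way for 3, which were *Cdkn1c*, *Cd81* and *Nap1l4*. For none of the 10 did all 6 embryos of 1 genotype lie above all 6 of the other, a separation seen in 0.574% of tested genes.

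**Figure D1:**
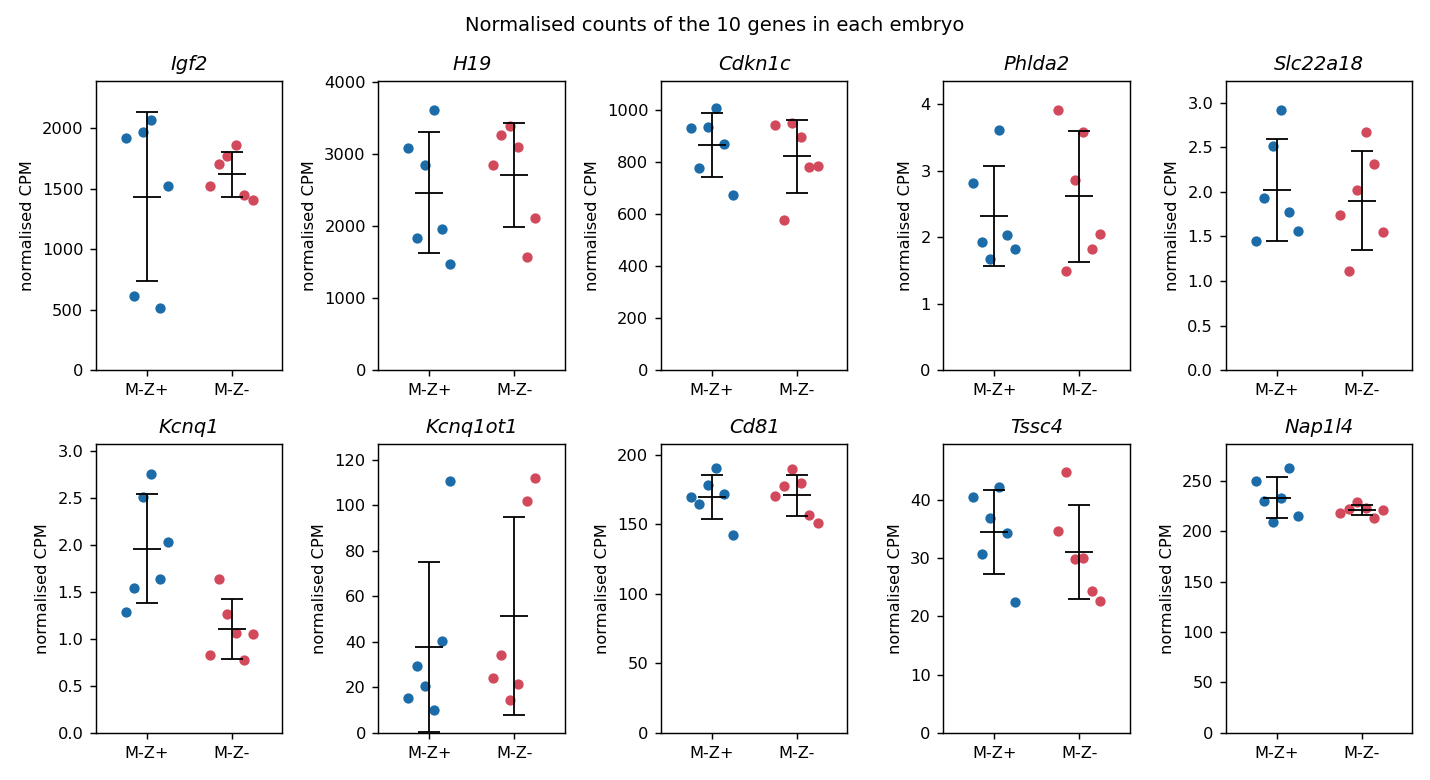
Normalised CPM (y axes, each from 0) of each gene in the 6 M-Z+ (blue) and 6 M-Z- (red) embryos, ordered by replicate number within a group, with the mean and SD in black. The genotypes overlap in every panel, *Igf2* has 2 low M-Z+ embryos, and *Kcnq1ot1* is near 110 CPM in 3 embryos and at most 40.2 CPM in the others.

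**Figure D2:**
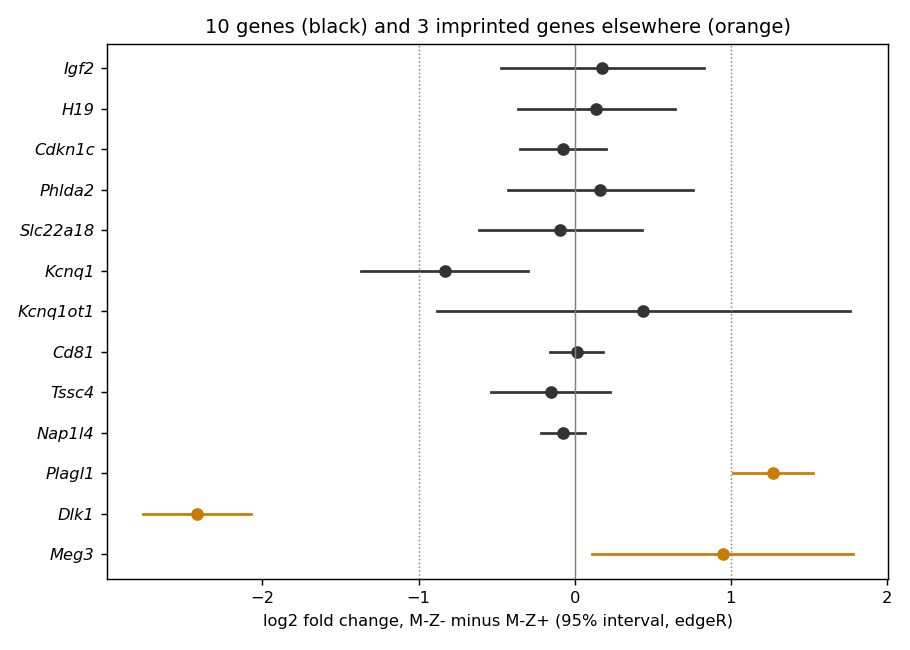
Log2 fold change of M-Z- against M-Z+ embryos (x axis) with its 95% interval from edgeR for the 10 genes (black) and for *Plagl1*, *Dlk1* and *Meg3*, imprinted genes of other chromosomes (orange). Dotted lines mark -1 and 1, and 8 of the 10 black intervals lie between them.

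Per gene length, the 10 genes differed widely in level. On the scale of FPKM, which are counts per kilobase of gene and scaled to a common library size, the mean level over the 12 embryos was 455 ± 133 (SD) for *H19*, 299 ± 46.1 for *Cdkn1c*, 116 ± 37.8 for *Igf2*, 99.3 ± 7.37 for *Nap1l4* and 53.8 ± 4.81 for *Cd81*. The other 5 were far lower, at 5.19 ± 1.21 FPKM for *Tssc4*, 3.25 ± 1.13 for *Phlda2*, 0.736 ± 0.204 for *Slc22a18*, 0.524 ± 0.458 for *Kcnq1ot1* and 0.338 ± 0.141 for *Kcnq1*. Most neighbours in this order kept it in all 12 embryos. The exceptions were *H19* over *Cdkn1c* (11 of 12), *Igf2* over *Nap1l4* (10 of 12), *Slc22a18* over *Kcnq1ot1* (9 of 12) and *Kcnq1ot1* over *Kcnq1* (8 of 12). The gene length that the FPKM values imply was above the listed span of the gene for 3 of the 10. It was 5688 against 2615 bases for *H19*, 6308 against 1845 for *Tssc4* and 2815 against 2701 for *Cdkn1c*. A length within the span would give these 3 genes higher FPKM. How the lengths were made is not given in the sources used here, and those of the other genes were not checked further. The order of *Cdkn1c* over *Igf2* rests on these lengths, since 13154 bases were implied for *Igf2*, whose span is 16051. Before division by length, the M-Z+ mean of *Igf2* was 1432 against 864 CPM for *Cdkn1c*, and the M-Z- mean was 1619 against 821 CPM.

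*Igf2*, the growth factor of the first domain (chr7:142650766-142666816), was read at 515 to 2066 CPM in M-Z+ embryos with a median of 1718, and at 1409 to 1863 CPM in M-Z- embryos with a median of 1613. M-Z+ replicates 2 and 5 were far below the rest, at 612 and 515 CPM from 7940 and 7856 counts, while the other 10 embryos of both genotypes lay between 1409 and 2066 CPM. The log2 fold change was 0.18 (SE 0.30, 95% interval -0.47 to 0.82, edgeR adjusted p = 0.879), and without these 2 embryos it was -0.22 (SE 0.11, adjusted p = 0.889), so its direction rested on them. That fit called 0.0676% of its tested genes and 0 of the 10. Among M-Z- embryos the CPM of *Igf2* varied by 11.5% (SD over mean), against 48.8% among M-Z+ embryos.

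Of the transcripts beside it, *Igf2os* was not low in these 2 embryos, whereas *H19* was lower than in most. *Igf2os*, the antisense transcript that overlaps *Igf2* by 7124 bases, was at 46.9 and 44.0 CPM in them and at 43.6 to 56.0 CPM in the other 10. *H19* was at 1830 and 1955 CPM in them. The 3 libraries with a high gene length slope held 1477 to 2115 CPM of *H19*, and the remaining 7 held 2845 to 3612 CPM, all above M-Z+ replicates 2 and 5. Genes that fell into 2 levels in this way, with a gap above 1 on the log2 scale and at least 2 libraries on each side, were 82 of the 11339 with a mean of at least 10 CPM (0.723%). *Igf2* and *Kcnq1ot1* were among them, and only 2 of the 82 split along genotype. Another 4, with the Y-linked *Ddx3y* among them, were low in just replicates 3, 4 and 5 of both genotypes. M-Z+ replicates 2 and 5 were both on the low side for 18 of the 82, and *Igf2* was the only gene with just these 2 low. *Nras*, a small GTPase gene on another chromosome, was similarly low in both, at 63.4 and 50.3 CPM, and M-Z- replicate 4 was low too at 60.8 CPM, while the remaining 9 embryos held 145 to 193 CPM. How such levels arose was not tested.

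**Figure D3:**
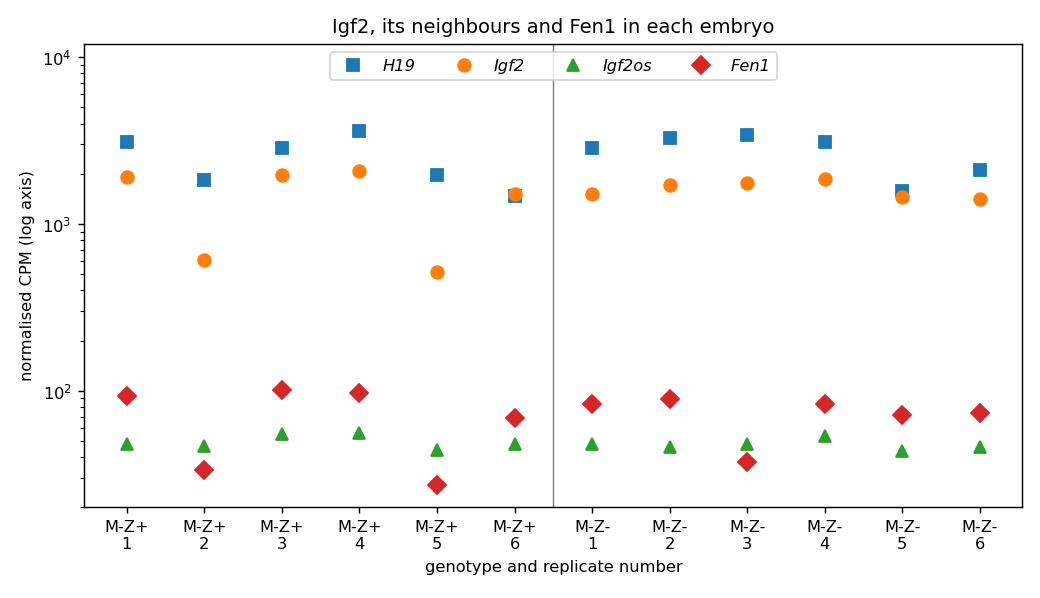
Normalised CPM on a log axis of *H19*, *Igf2*, *Igf2os* and *Fen1* in each of the 12 embryos, given by genotype and replicate number. *Igf2* and *Fen1* are low together in M-Z+ replicates 2 and 5, *Fen1* is also low in M-Z- replicate 3, and *Igf2os* stays between 43.6 and 56.0 CPM.

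*H19*, the maternally expressed noncoding RNA of the same domain (chr7:142575529-142578143), was read at 1477 to 3612 CPM in M-Z+ embryos with a median of 2400, and at 1569 to 3393 CPM in M-Z- embryos with a median of 2975. Both groups held high and low embryos, and the M-Z- range lay inside the M-Z+ range. The log2 fold change was 0.14 (SE 0.23, 95% interval -0.36 to 0.64, edgeR adjusted p = 0.877). The lowest *H19* of each genotype was in a library with a high gene length slope, M-Z+ replicate 6 and M-Z- replicate 5. With this slope as a covariate the log2 fold change of *H19* was 0.46 (SE 0.12, unadjusted p = 0.00241, edgeR adjusted p = 0.271), which was not called. That fit called 0.144% of tested genes and 0 of the 10. With 2 surrogate variables in place of the slope *H19* gave 0.29 (SE 0.10, 95% interval 0.06 to 0.51). It was not called there either (unadjusted p = 0.0155, edgeR adjusted p = 0.288).

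Within an embryo *Igf2* and *H19* share an ICR and enhancers, so their ratio was taken as well. The log2 ratio of *Igf2* to *H19* CPM was -0.92 ± 0.72 (SD) in M-Z+ and -0.70 ± 0.32 in M-Z- embryos, a difference of 0.21 (exact permutation p = 0.537, two-sided, and 0.626 after Benjamini-Hochberg adjustment over 7 ratios). Without M-Z+ replicates 2 and 5 the difference was -0.21. Across embryos of 1 genotype the log2 CPM of the pair gave Pearson r = 0.61 and Spearman rho = 0.71 in M-Z+ (exact permutation p = 0.275 and 0.136), and r = 0.80 and rho = 0.77 in M-Z- (exact permutation p = 0.0389 and 0.103). After leaving out the 2 embryos farthest from the median of *Igf2*, r was 0.99 and 0.85. None of the 10 relations of this kind passed adjustment, which gave 0.649 for the M-Z+ and 0.194 for the M-Z- value of r here. With the gene length slope removed from both genes, r was 0.95 in M-Z+ (exact permutation p = 0.0139, adjusted 0.139) and 0.16 in M-Z- embryos (exact permutation p = 0.822, adjusted 0.953). Spearman rho was then 0.83 in M-Z+ (exact permutation p = 0.0583, adjusted 0.514) and -0.20 in M-Z- embryos (exact permutation p = 0.714, adjusted 0.793). The M-Z+ value of r was 0.67 without replicates 2 and 5, the embryos farthest from the median of *Igf2*.

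*Kcnq1ot1*, the silencing RNA of the second domain (chr7:143212155-143296549), varied most. It was read at 10.2 to 110.6 CPM in M-Z+ embryos with a median of 25.0, and at 14.3 to 112.0 CPM in M-Z- embryos with a median of 29.2. M-Z+ replicate 6 and M-Z- replicates 5 and 6 were at 110.6, 101.7 and 112.0 CPM, and no other embryo exceeded 40.2 CPM. These 3 libraries are also those with the highest gene length slopes, and *Kcnq1ot1*, with 84395 bases, is by far the longest of the 10 transcripts as counted. The log2 fold change was 0.44 (SE 0.62, 95% interval -0.88 to 1.76, edgeR adjusted p = 0.851), and it was -0.37 (SE 0.25, adjusted p = 0.637) with the slope as a covariate. Leaving out M-Z+ replicate 6 gave 1.14, whereas leaving out M-Z- replicate 5 gave 0.12 and leaving out M-Z- replicate 6 gave 0.041, and it was called in none of these fits. With 2 surrogate variables in place of the slope it was 0.11 (SE 0.14, 95% interval -0.19 to 0.41, adjusted p = 0.800). The estimate thus depended on the model, and the part of the slope in its level was not tested beyond this covariate.

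**Figure D4:**
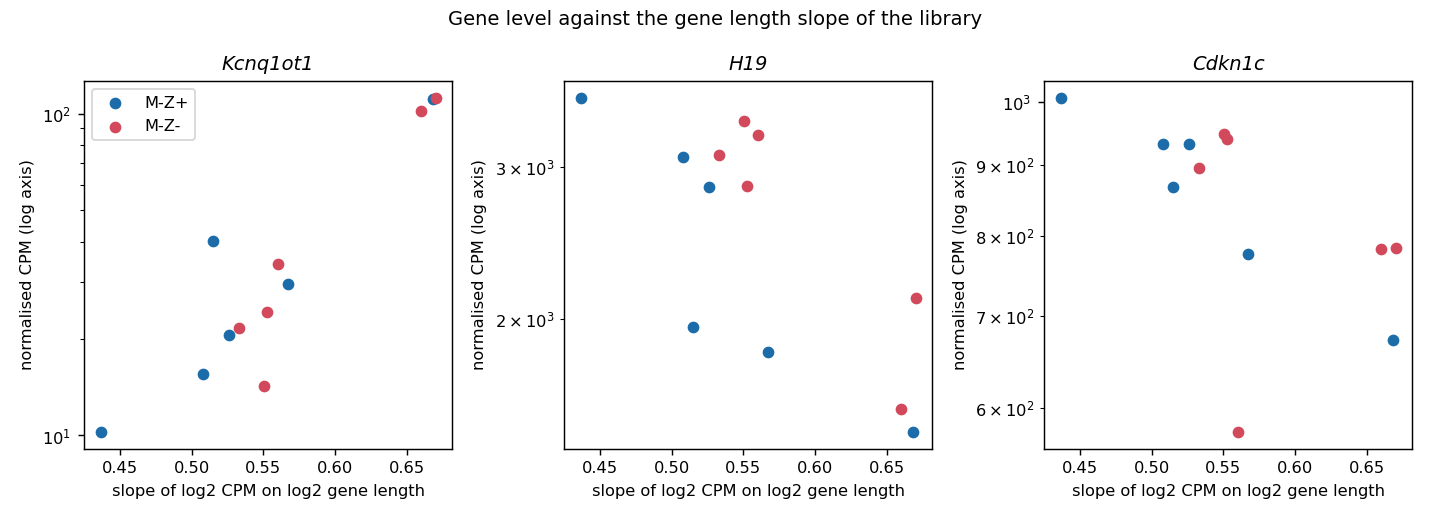
Normalised CPM on log axes of *Kcnq1ot1*, *H19* and *Cdkn1c* against the gene length slope of each library (x axis, log2 CPM per log2 base), with M-Z+ in blue and M-Z- in red. The 3 libraries with slopes of 0.660 to 0.670 hold the 3 highest *Kcnq1ot1* values, and *H19* is at most 2115 CPM in them.

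*Cdkn1c*, which encodes the cyclin-dependent kinase inhibitor p57, was read at 672 to 1007 CPM in M-Z+ embryos with a median of 899.5, and at 576 to 948 CPM in M-Z- embryos with a median of 839. M-Z- replicate 2 was the lowest and M-Z+ replicate 4 the highest of the 12, and the ranges overlapped. The log2 fold change was -0.07 (SE 0.13, 95% interval -0.35 to 0.20, edgeR adjusted p = 0.878). The log2 ratio of *Cdkn1c* to *Kcnq1ot1* was 4.96 ± 1.40 (SD) in M-Z+ and 4.42 ± 1.36 in M-Z- embryos, a difference of -0.54 (exact permutation p = 0.5, adjusted 0.626). Across the M-Z+ embryos the log2 CPM of the 2 genes gave r = -0.93 and rho = -0.89 (exact permutation p = 0.0222 and 0.0333, adjusted 0.194 and 0.333), and r = -0.97 without the 2 embryos farthest from the median. In M-Z- embryos r was -0.39 and rho -0.71 (exact permutation p = 0.483 and 0.136). With the gene length slope removed from both genes r was -0.41 in M-Z+ and -0.63 in M-Z- embryos. The exact permutation p was 0.389 and 0.0833 (adjusted 0.778 and 0.306). Without the 2 embryos then farthest from the median of *Cdkn1c*, r turned to 0.23 and 0.20.

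*Phlda2*, a pleckstrin homology domain gene known as a brake on placental growth, had only 20 to 67 counts per library. It was read at 1.67 to 3.61 CPM in M-Z+ and at 1.49 to 3.91 CPM in M-Z- embryos, with medians of 1.98 and 2.45. High and low embryos occurred in both groups, and the log2 fold change was 0.16 (SE 0.27, 95% interval -0.43 to 0.76, edgeR adjusted p = 0.875). Its log2 ratio to *Kcnq1ot1* differed by -0.32 between genotypes (exact permutation p = 0.727, adjusted 0.727).

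*Slc22a18*, which encodes an organic cation transporter-like protein, had 15 to 54 counts per library. It was read at 1.45 to 2.91 CPM in M-Z+ and at 1.12 to 2.67 CPM in M-Z- embryos, with medians of 1.85 and 1.88. The groups overlapped almost wholly, with a log2 fold change of -0.09 (SE 0.24, 95% interval -0.61 to 0.43, edgeR adjusted p = 0.919).

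*Kcnq1*, the voltage-gated potassium channel gene that hosts *Kcnq1ot1* (chr7:143106362-143427042), had the largest estimated difference of the 10. It was read at 1.29 to 2.75 CPM in M-Z+ embryos with a median of 1.84, and at 0.771 to 1.64 CPM in M-Z- embryos with a median of 1.06. Every M-Z- embryo but replicate 2 was below the lowest M-Z+ embryo, replicate 1, so the groups overlapped narrowly. The log2 fold change was -0.83 (SE 0.25, 95% interval -1.37 to -0.30, unadjusted p = 0.00481), but edgeR's adjusted p was 0.645. These levels rest on 184 counts in all M-Z+ and 87 counts in all M-Z- libraries, with 10 to 51 per library. The estimate lay between -0.99 and -0.71 when each embryo was left out in turn and was called in none of these fits. With the slope as a covariate it was -0.75 (adjusted p = 0.386). In bulk RNA, fewer *Kcnq1*-expressing cells and less RNA per cell cannot be told apart.

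*Kcnq1* and *Kcnq1ot1* overlap over the whole of *Kcnq1ot1*, and whether counting used strand is not given in the sources used here, so reads of the pair may have been divided between them. Their log2 ratio was -3.86 ± 1.34 (SD) in M-Z+ and -5.14 ± 1.42 in M-Z- embryos, a difference of -1.28 that did not pass (exact permutation p = 0.141, adjusted 0.492). Across embryos of 1 genotype the pair gave r = -0.17 and rho = -0.20 in M-Z+ (exact permutation p = 0.778 and 0.714) and r = -0.36 and rho = -0.43 in M-Z- embryos (exact permutation p = 0.464 and 0.419). Without the 2 farthest embryos r was -0.12 and -0.18.

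The 3 remaining genes lie at the edges of the *Kcnq1* domain, where imprinting is mostly known from placenta. *Cd81*, a tetraspanin gene, was read at 142 to 190.1 CPM in M-Z+ and at 151 to 190.0 CPM in M-Z- embryos, with a log2 fold change of 0.01 (SE 0.08, 95% interval -0.16 to 0.18, edgeR adjusted p = 0.971). *Nap1l4*, a histone chaperone gene, was read at 209 to 263 and at 213 to 229 CPM, with -0.08 (SE 0.07, 95% interval -0.22 to 0.06, adjusted p = 0.775). These 2 genes had the narrowest intervals, and their highest level was 1.33 and 1.25 times the lowest over the 12 embryos.

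*Tssc4*, a spliceosome assembly factor gene, was read at 22.5 to 42.2 CPM in M-Z+ and at 22.7 to 44.8 CPM in M-Z- embryos. Its groups overlapped, with a log2 fold change of -0.15 (SE 0.18, 95% interval -0.53 to 0.23, edgeR adjusted p = 0.814). *Tssc4* lies wholly inside *Trpm5*, an ion channel gene, whose own log2 fold change was 0.30 (SE 0.14, adjusted p = 0.749), and *Cd81* shares 948 bases with *R74862*, so reads of these pairs may also have been divided.

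**Figure D5:**
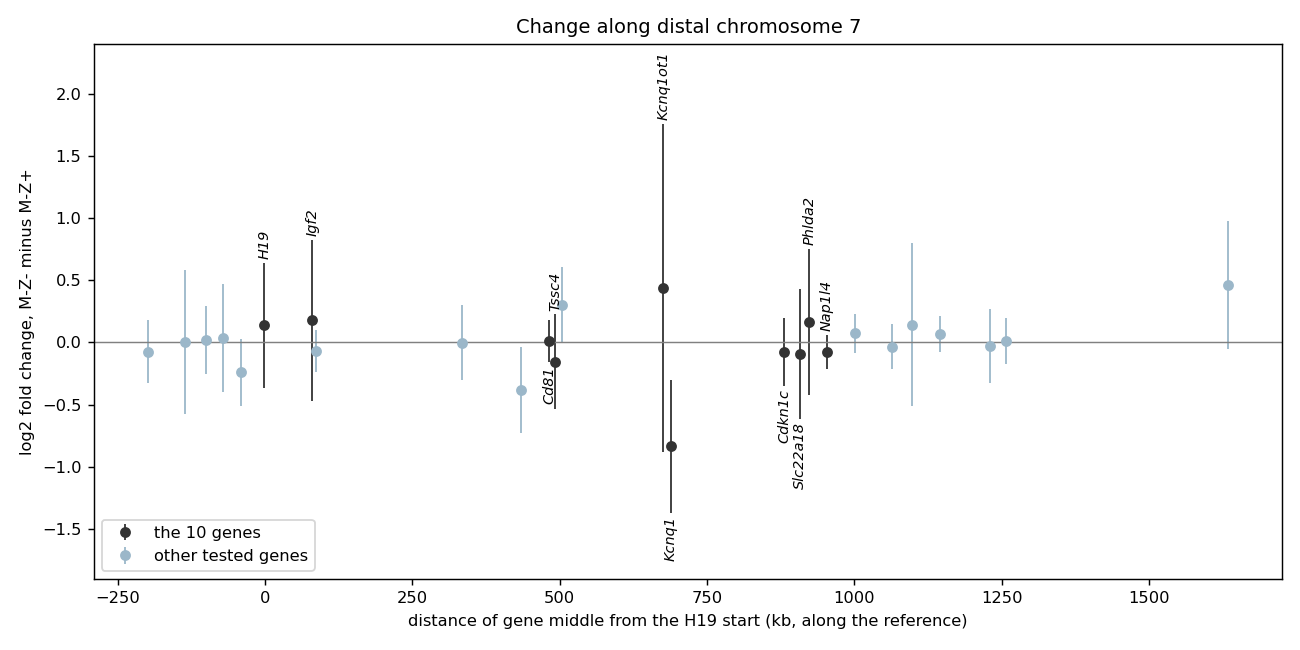
Log2 fold change of M-Z- against M-Z+ embryos with its 95% interval (y axis) for the 10 genes (black) and 16 other tested genes (blue) by the distance of the gene's middle from the *H19* start in kilobases (x axis). Apart from *Kcnq1ot1* and *Kcnq1*, the estimates along the domains and their flanks lie between -0.38 and 0.46.

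The flanks held no called gene. Of 25 symbols listed for neighbours, which may name a gene more than once, 22 were found in the count table and 16 were tested. Of these 16, 0 were called, against 0.0811% of all tested genes. At the unadjusted p with the fold change limit 0 passed, against 1.54%. The median log2 fold change of the 16 was 0.01, beside -0.01 over all tested genes. The lowest was *Tspan32*, a tetraspanin gene between the domains, at -0.38 (SE 0.16, edgeR adjusted p = 0.744), and the highest was *Shank2* at 0.46 (SE 0.24, adjusted p = 0.749). *Ins2*, *Nctc1* and *Mrgprg* were at 0 counts in all 12 libraries.

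Among genes of the pathways in which the 10 act, no member of the IGF list was called (0 of 14), against 0.0811% of all tested genes. At that share, lists of this length are expected to hold no called gene, so 0 calls do not show an unchanged pathway. *Igf2r*, the receptor that clears IGF2, had a mean of 452 ± 81.9 (SD) CPM over the M-Z+ and of 343 ± 110.2 CPM over the M-Z- embryos, with a log2 fold change of -0.40 (SE 0.18, edgeR adjusted p = 0.744). *Igf1r*, the signalling receptor, gave 0.36 (SE 0.27, adjusted p = 0.759), and the binding protein gene *Igfbp5* gave 0.16 (SE 0.06, adjusted p = 0.744). Of the cyclin-dependent kinase inhibitors and their partners, 0 of 10 were called, with log2 fold changes between -0.09 and 0.14. The relatives *Cdkn1a* and *Cdkn1b* gave -0.08 and 0.10.

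Of 11 genes for factors that act on these domains, 1 was called. *Plagl1*, an imprinted zinc finger gene whose protein is known to activate *Igf2*, *H19* and *Cdkn1c*, rose from a mean of 487 ± 95.9 (SD) CPM over the M-Z+ to 1174 ± 78.8 CPM over the M-Z- embryos, with a log2 fold change of 1.27 (SE 0.12, edgeR adjusted p = 0.000212). *Ctcf*, the insulator protein gene, gave 0.08 and *Trim28*, the ZFP57 cofactor gene, gave -0.08, neither of which was called. Across embryos of 1 genotype *Igf2* and *Plagl1* gave r = 0.29 and rho = 0.26 in M-Z+ (exact permutation p = 0.519 and 0.658) and r = -0.68 and rho = -0.54 in M-Z- (exact permutation p = 0.172 and 0.297). Without the 2 embryos farthest from the median r was -0.54 and -0.81. *Cdkn1c* and *Plagl1* gave r = -0.49 and rho = -0.31 in M-Z+ (exact permutation p = 0.328 and 0.564) and r = -0.13 and rho = -0.37 in M-Z- (exact permutation p = 0.761 and 0.497). Without the 2 farthest embryos r was 0.48 and 0.23. The sign thus turned in each case except for *Igf2* and *Plagl1* in M-Z- embryos, where it stayed negative. With the gene length slope removed *Igf2* and *Plagl1* gave r = 0.48 in M-Z+ and -0.87 in M-Z- embryos. The exact permutation p was 0.228 and 0.0917 (adjusted 0.569 and 0.306). None passed adjustment over the 10 relations.

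Of 11 relatives of the 10 genes, 1 was called. *Nap1l5*, an imprinted relative of *Nap1l4* on chromosome 6, rose from 20.7 ± 2.50 (SD) CPM to 39.7 ± 2.77 CPM, with a log2 fold change of 0.94 (SE 0.09, edgeR adjusted p = 0.000238). The value of *Nap1l4* itself stands above at -0.08.

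Another 3 ratios set genes of these domains against imprinted genes elsewhere, whose changes were known from earlier results of these data. They are therefore given as a description without their p-values, although they were among the 7 ratios over which the ratio p-values above were adjusted. The log2 ratio of *Igf2* to *Dlk1*, another paternally expressed growth gene, was 1.58 ± 0.85 (SD) in M-Z+ and 4.36 ± 0.20 in M-Z- embryos. All 6 M-Z- values lay above all 6 M-Z+ values, with a difference of 2.79. *Dlk1* alone had a mean of 425 ± 87.0 CPM over the M-Z+ and of 79.5 ± 15.8 CPM over the M-Z- embryos. Without M-Z+ replicates 2 and 5 the difference was 2.26. *H19* against *Meg3*, both maternally expressed noncoding RNAs, differed by -0.69, and *Kcnq1ot1* against *Plagl1* by -0.83.

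The genes most like each of 4 members over the 12 embryos, after each genotype's mean was subtracted, were sought among 11339 genes as a description. *Kcnq1ot1* had 555 genes with r above 0.9, led by *Zfp950* (0.99), *2210018M11Rik* (0.99) and *Grik2* (0.99). *H19* had 244, led by *9530068E07Rik* (0.98), *Krt8* (0.97) and *Matn4* (0.97). *Cdkn1c* had 2, *Ywhah* (0.95) and *Eral1* (0.91), followed by *Hrc* (0.90). *Igf2* had 0, and its nearest were *Mapkapk5* (0.87), *Tppp3* (0.85) and *Fen1* (0.84). *Fen1*, a DNA repair nuclease gene, was at 33.6 and 27.3 CPM in M-Z+ replicates 2 and 5 and M-Z- replicate 3 had 37.2 CPM, while the remaining 9 embryos held 68.9 to 101 CPM. The 12 points share their library, depth and gene length slope, so these values say nothing of shared control.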

How the data were processed

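The RNA-seq libraries of 12 embryos were grouped into 6 M-Z+ and 6 M-Z- by the genotype in the sample labels. The authors deposited raw counts per gene, which were used for every test. The authors also deposited FPKM values, and 100% of those above 0.01 came back from the counts with 1 length per gene to within 0.1%. FPKM was used only to set levels of different genes side by side. The submitters' processing notes name HISAT2 2.0.4, Trim Galore 0.4.1 and mm10. The study's methods describe STAR and strand-aware featureCounts on mm9 for its own RNA-seq set, whereas the program and strand setting behind these counts are not stated. The 12 embryos with whole-genome bisulfite sequencing were not analysed here. The members and gene lists were chosen with earlier results of these data known.

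Tests were run in R 4.3.3 by edgeR 4.0.16 (TMM, filterByExpr, glmQLFit, glmQLFTest), DESeq2 1.42.0 and sva 3.50.0, and in Python 3.11.15 with scipy 1.17.1 and matplotlib 3.10.9. M-Z- was compared with M-Z+ without covariates, with Benjamini-Hochberg adjustment over 16026 genes. The 95% interval is the log2 fold change with its SE (its size over the square root of F) times the t quantile. Ratios and correlations were tested by two-sided exact permutation, ratios over all 924 divisions. Library totals of 12005145 to 19216288 limit precision most for *Phlda2*, *Slc22a18* and *Kcnq1*. Each library is 1 embryo, and p-values measure the spread between embryos. Libraries with identical counts were 0.

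Named genes were the 10 members, at most 4 per list beside called ones, *Dlk1*, *Meg3* and *Plagl1* for ratios, and the 3 genes most like *Igf2*, *H19*, *Cdkn1c* and *Kcnq1ot1* (Pearson r of log2(CPM + 0.5)). *Nras*, *Ddx3y*, *R74862* and *Zfp57*, and *Igf2os*, *Trpm5*, *Ins2*, *Nctc1* and *Mrgprg* beyond 4 genes of the flanks, were named outside this rule after their values were seen. Alternatives were DESeq2, no filter, a mean of at least 50 counts, the unadjusted p, no fold change limit, a block for the replicate number, 2 surrogate variables, a covariate for the gene length slope, and each embryo left out. A fit without M-Z+ replicates 2 and 5 was added after the data were seen. On simulated counts with 200 changed genes for this comparison, edgeR recovered 98.5% with 5 false calls among 16069 genes, and DESeq2 recovered 99% with 23 among 23601. The simulation used the same dispersion for all genes and libraries without differences in gene length slope. Its changes were of at least a doubling or halving, in genes with a mean above 50 counts. The recovery therefore does not measure the power for *Phlda2*, *Slc22a18* and *Kcnq1*, with fewer counts, or for the more variable *Igf2* and *Kcnq1ot1*.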

Additional observations from a re-analysis of the deposited data

Results flagged for a closer look

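*Kcnq1ot1* in M-Z+ replicate 6 stood apart from the other 5 M-Z+ embryos at 110.6 CPM, where the nearest of them was at 40.2 CPM. The gap to the nearest embryo was 0.701 of the whole range, above Dixon's critical value for 6 values. It was the only one of 34 groups of values examined that stood apart in this way, and chance gives about 1 in 20 such groups, or 1.7 of 34. M-Z- replicates 5 and 6 reached the same level at 101.7 and 112.0 CPM, and the gene length slopes of these 3 libraries were the highest of the 12. The part of the slope was not tested beyond its use as a covariate.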

How the results depend on the processing

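No alternative called any of the 10 genes except the unadjusted p, which passed 1 (*Kcnq1*). The count of called genes, 13, was 247 at the unadjusted p, 40 in DESeq2, 37 with 2 surrogate variables and 23 after adjustment for the gene length slope, and lay between 11 and 15 with each embryo left out. The filter of a mean of at least 50 counts left 7 of the 10 genes. Signs of uncalled log2 fold changes turned as follows. Without M-Z+ replicates 2 and 5, a choice made after seeing the data, *Igf2* gave -0.22, *H19* -0.031 and *Cd81* -0.0041, and the *Igf2*/*H19* ratio -0.21. With 2 surrogate variables *Cdkn1c* gave 0.0063 and *Slc22a18* 0.025. With the slope as a covariate *Cdkn1c* gave 0.041, *Slc22a18* 0.042, *Kcnq1ot1* -0.37 and *Tssc4* 0.072, and with the slope removed *Kcnq1* and *Kcnq1ot1* gave r = 0.056 in M-Z+ and 0.083 in M-Z-, and *Cdkn1c* and *Plagl1* 0.26 in M-Z+. For *Igf2* and *H19* in M-Z- embryos rho turned from 0.77 to -0.20 with the slope removed. With the slope removed and the 2 farthest embryos left out, *Cdkn1c* and *Kcnq1ot1* gave r = 0.23 in M-Z+ and 0.20 in M-Z-. With each embryo left out, *Igf2* ranged from -0.0019 to 0.31, *Slc22a18* from -0.21 to 0.046, *Cd81* from -0.042 to 0.045 and *Phlda2*/*Kcnq1ot1* from -0.78 to 0.11. The *Igf2*/*Dlk1* ratio, a description here, was 2.26 without M-Z+ replicates 2 and 5. The cause of these turns was not tested.

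Replicate numbers are shared between genotypes, but same-numbered embryos gave correlations of deviations of 0.020 (replicate 2) and, for the other 5, of 0.103 to 0.639. *Ddx3y* was read in replicates 1, 2 and 6 of both genotypes. Since 1 pair was under 0.1 and the labels give no shared litter or day, the numbers were not taken to pair the embryos. With the replicate block 21 genes and 0 of the 10 were called, and *Kcnq1ot1* gave 0.47 (SE 0.22, edgeR adjusted p = 0.386). The *Kcnq1*/*Kcnq1ot1* ratio was lower in M-Z- in all 6 same-numbered pairs, by -1.28 in the mean (paired exact permutation p = 0.03125, the smallest 6 pairs allow, adjusted 0.0729). That p rests on a pairing that was not adopted here, and the unpaired exact permutation p was 0.141. Neither test took the gene length slope into account. The descriptive ratios *Igf2*/*Dlk1* (2.79) and *Kcnq1ot1*/*Plagl1* (-0.83) kept their sign in all 6 pairs too, which is no further evidence on the 10 genes. The log2 fold changes of *Dlk1* (-2.42) and *Plagl1* (1.27) were known beforehand, while *Kcnq1ot1* itself gave 0.44 in the main fit.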
